A study of Rattus norvegicus with 232 samples.

Results

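The immediate early genes described here were Fos, Fosb, Junb, Egr1, Egr2, Egr4, Arc, Npas4, Nr4a1 and Dusp1, 10 of the 20859 genes in a RefSeq gene table of rat whole brain. They were taken by name as known members of the class, with earlier results of these data known, and all 10 had a value in each animal. The values came from stranded sequencing libraries of total RNA, depleted of ribosomal RNA, from 197 untreated male rats. The rats came from the Hybrid Rat Diversity Panel and belonged to 74 inbred strains. Of these, 30 (88 animals) belonged to the HXB/BXH recombinant inbred panel bred from SHR/OlaIpcv and BN-Lx/Cub, 19 (43 animals) belonged to the FXLE/LEXF recombinant inbred panel bred from F344/Stm and LE/Stm, and 25 (66 animals) were classic inbred strains, among them these 4 progenitors. No rat had received alcohol or a drug or undergone behavioral testing. The labels give the brains as frozen in RNAlater and give no age. The study's methods give a single age range of young adult rats. These methods do not describe the collection of FXLE/LEXF brains, or of brains of all inbred strains used here. The study states that brains of the HXB/BXH panel and of its progenitors were collected at another site and stored in liquid nitrogen. These progenitors, BN-Lx/Cub and SHR/OlaIpcv, are counted here among the inbred strains. In the strains that the study's methods describe, a single side of each brain was sequenced. For classic inbred strains obtained from suppliers, these methods state that rats were killed by carbon dioxide exposure and decapitation. The part of this in the levels was not tested. Animals of an inbred strain are nearly the same in genotype, so that the spread within a strain holds what differs between animals and between libraries. The spread between strains holds what strains add to it. This can be genotype, and also collection site and batch where these differ between strains.

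Immediate early genes are genes that a stimulated cell transcribes within minutes from factors already present, without new protein synthesis. In neurons, calcium entry and kinase signals act on serum response factor at CArG boxes and on CREB at cAMP response elements, and the RNA is short-lived, so that its amount in brain is widely read as a trace of recent neuronal activity. Fos, Fosb and Junb encode subunits of the AP-1 transcription factor, Egr1, Egr2 and Egr4 encode zinc finger transcription factors, Npas4 encodes a neuronal transcription factor induced by calcium, and Nr4a1 encodes an orphan nuclear receptor. Arc encodes a protein of the postsynapse that takes part in AMPA receptor endocytosis, and Dusp1 encodes a phosphatase that turns off MAP kinases.

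The strain comparisons used 192 animals of the 69 strains with 2 or more animals (54 strains with 3 and 15 with 2). The deposited values were read as log2 levels from their range, and how they were scaled is not given in the sources used here. The table holds no counts, so that sequencing depth is unknown, and whether gene length was corrected for is not stated, so that levels were compared between animals and not between genes. Median levels of the 214 libraries lay between 8.18 and 8.42 log2. A batch is the sequencing batch named by the labels, of which there were 17, and 62 of the 69 strains had libraries in 2 or more batches. The 3 animals of LEW/Crl, labelled male, had low levels of the Y-linked genes Kdm5d, Eif2s3y and Uty, with 1 other animal as low. Kdm5d was at 9.57 to 9.64 in them, against a median of 10.6 in the others. The Y-linked genes Ddx3y (2.91 to 3.14, median of the others 2.97) and Usp9y (5.08 to 5.77, median 5.13) were not low in LEW/Crl. The single LE/Stm animal had an albumin (Alb) level of 23.2 against 9.76 to 17.2 in the others. Leaving out LEW/Crl and LE/Stm changed the call of no member. With 1 animal, LE/Stm was not among the 192 and could bear only on the panel comparisons.

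Promoters of 8 of the 10 genes are shown by the RefSeq sequences of build GRCr8 (250 bases before the start of each gene), because the members moved together and the class is known for shared regulatory sites. Fos and Arc had no entry. On both strands, a CArG box was found in 2 of the 8 (Egr1 and Egr2) and in 1.5% of all 33469 rat promoters of this length. The complete cAMP response element TGACGTCA was found in Dusp1, 1 of the 8, and in 1.59% of all promoters. Its core TGACG, which overlaps the complete element, was found in 6 of the 8 (not in Fosb or Npas4) and in 18.2% of all promoters. A match describes letters in this window and was not tested as a binding site. The sequences of Egr1 (chr18:26736828-26737077, plus strand), Egr2 (chr20:21054442-21054691, minus strand), Nr4a1 (chr7:134259888-134260137, plus strand) and Dusp1 (chr10:17184603-17184852, plus strand) follow, with CArG boxes and cAMP response element letters in capitals. Egr1 and Egr2 are shown for the CArG boxes, Nr4a1 for the largest number of core matches (4), and Dusp1 for the complete element.
Egr1: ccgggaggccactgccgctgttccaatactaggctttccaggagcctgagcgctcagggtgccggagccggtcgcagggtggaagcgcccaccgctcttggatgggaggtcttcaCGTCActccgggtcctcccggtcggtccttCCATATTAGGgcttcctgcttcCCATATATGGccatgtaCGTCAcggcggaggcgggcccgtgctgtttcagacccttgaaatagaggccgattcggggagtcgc
Egr2: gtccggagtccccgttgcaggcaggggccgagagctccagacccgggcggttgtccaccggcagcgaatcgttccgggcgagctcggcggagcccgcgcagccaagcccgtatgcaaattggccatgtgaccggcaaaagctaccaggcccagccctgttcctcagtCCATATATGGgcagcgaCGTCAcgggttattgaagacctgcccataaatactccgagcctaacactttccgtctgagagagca
Nr4a1: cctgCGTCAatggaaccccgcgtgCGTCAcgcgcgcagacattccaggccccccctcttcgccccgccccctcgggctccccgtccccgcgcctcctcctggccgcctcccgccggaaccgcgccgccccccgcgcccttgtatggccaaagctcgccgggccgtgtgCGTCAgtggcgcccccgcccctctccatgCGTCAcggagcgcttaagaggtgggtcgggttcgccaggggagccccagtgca
Dusp1: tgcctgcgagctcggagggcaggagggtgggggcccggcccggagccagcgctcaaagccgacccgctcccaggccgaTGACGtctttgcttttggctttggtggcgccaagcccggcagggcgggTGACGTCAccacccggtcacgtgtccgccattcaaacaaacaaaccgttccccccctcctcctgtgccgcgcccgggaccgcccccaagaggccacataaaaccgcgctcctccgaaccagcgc
The Egr1 boxes lay at -105 to -96 and -83 to -74 from the gene start, the Egr2 box lay at -83 to -74, and both promoters held a core element at -66 to -62.

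In the rn6 annotation of the deposited reconstructed transcriptome, Fos (ENSRNOG00000008015) lay at chr6:109300433-109303299, Junb (ENSRNOG00000042838) at chr19:26092974-26094756, Egr1 (ENSRNOG00000019422) at chr18:27657628-27661429, Egr4 (ENSRNOG00000015719) at chr4:117293620-117296082, Npas4 (ENSRNOG00000020009) at chr1:220261008-220265772 and Dusp1 (ENSRNOG00000003977) at chr10:16970626-16973418. The 6 genes thus lie on 6 chromosomes. Identifiers of the others were ENSRNOG00000046667 for Fosb, ENSRNOG00000000640 for Egr2, ENSRNOG00000043465 for Arc and ENSRNOG00000007607 for Nr4a1.

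The question of whether animals of a strain resemble each other in these genes was asked with a limma F-test over strains. Levels of 9 of the 10 genes differed between strains at a false discovery rate of 5%, where 36.8% of all genes did. Junb was the exception, with an adjusted p of 0.106 by limma. It was called with the batch label or the title batch as a covariate (adjusted p 0.0116 and 0.0133 by limma). In those fits 57.3% and 46.2% of all genes were called. The between-strain share of variance had a median of 0.371 ± 0.098 over the 10 genes (jackknife SE over 69 strains), and the median of all genes was 0.123. In the older v5 table of 131 animals, in which Junb and a larger share of all genes were called, these medians were 0.592 and 0.234. Whole brain is a mixture, so that fewer cells expressing a gene and less of its RNA per cell cannot be told apart in these values.

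Of the AP-1 genes, Fos ranged from 7.80 log2 in its lowest animal over a median of 9.12 to 9.97 in its highest, a 4.48-fold range. The Fosb range was 6.06, 7.01 and 7.88 for the lowest, median and highest animal. For Junb these levels were 8.26, 9.36 and 10.2. The between-strain share of variance was 0.349 ± 0.112 for Fos, 0.556 ± 0.084 for Fosb and 0.114 ± 0.106 for Junb (jackknife SE), with adjusted p of 2.29e-05, 2.02e-12 and 0.106 by limma. With batch in the model the share of Junb was 0.215, beside a median of 0.192 for all genes in that fit. The difference in share between genes was not tested. Fosb had the highest share of the 10 genes, and Junb had the lowest and the widest spread within strains (SD 0.407, a 1.33-fold difference).

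Of the zinc finger genes, Egr1 ran from 8.68 over a median of 9.73 to 10.5 log2. The Egr2 levels were 6.15, 7.38 and 8.40, a 4.75-fold range. Those of Egr4 were 6.14, 6.90 and 7.69. Egr2 varied most between strains of all 10 genes, with a between-strain SD of 0.352 log2 and a share of variance of 0.479 ± 0.093 (adjusted p 2.54e-09 by limma). The shares of Egr1 (0.249 ± 0.088, adjusted p 0.00251) and Egr4 (0.267 ± 0.092, adjusted p 0.00127) were lower, although all 3 encode related factors.

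Npas4 ran from 7.68 over 8.80 to 9.71 log2 and had a between-strain share of 0.261 ± 0.080 (adjusted p 0.00153 by limma). Nr4a1 had the widest range of the 10 genes, from 8.25 over 9.59 to 10.6 log2, a 5.15-fold range, with a share of 0.393 ± 0.100 (adjusted p 1.58e-06). For the synaptic gene Arc the levels were 10.5, 11.7 and 12.4 log2, with a share of 0.417 ± 0.102 (adjusted p 3.24e-07). Dusp1 had the narrowest range, from 8.67 over 9.46 to 10.1 log2, and the smallest SD within strains (0.223 log2), yet its share of 0.396 ± 0.094 (adjusted p 1.60e-06) was close to that of Nr4a1.

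**Figure D1:**
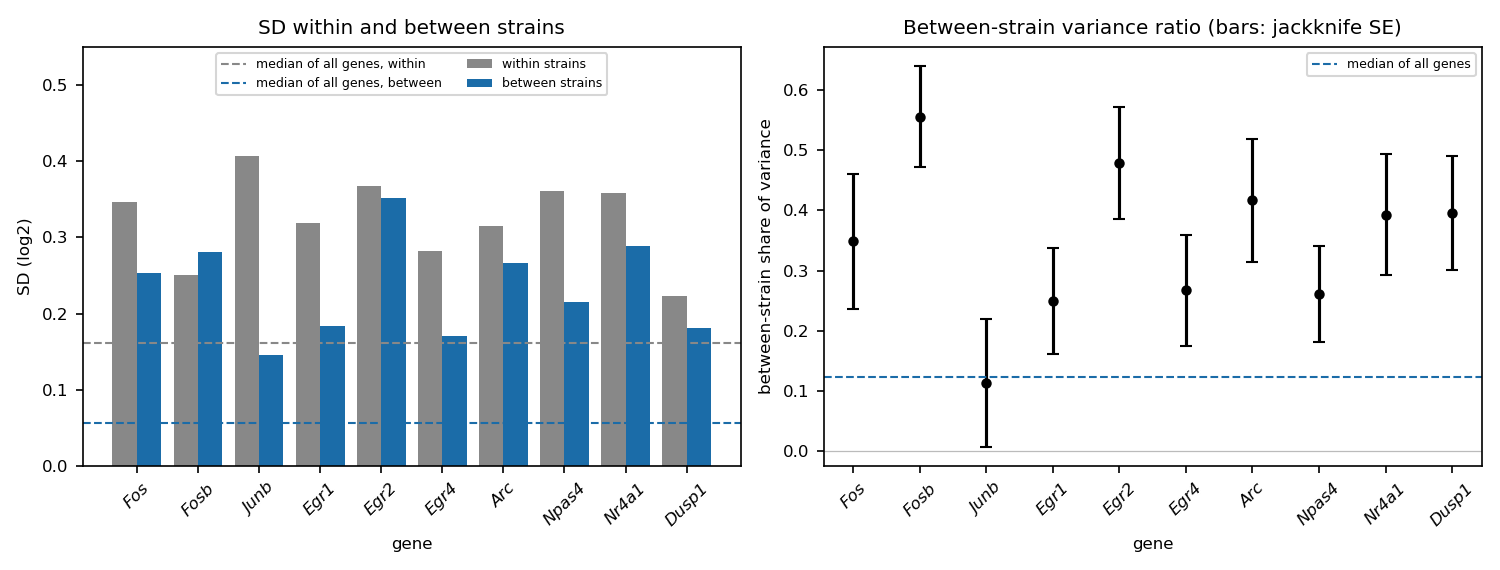
SD within strains (grey bars) and between strains (blue bars) in log2 units on the left, and the between-strain share of variance with its jackknife SE on the right, for each of the 10 genes over 192 animals of 69 strains; dashed lines are medians of all 20859 genes. Fosb is the only gene whose between-strain SD exceeds its within-strain SD, and Junb lies at a share of 0.114.

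Both components were large beside those of other genes. The SD within strains lay between 0.223 log2 (Dusp1) and 0.407 log2 (Junb), with a median of 0.332 against 0.162 for all genes, and placed the members between the 84.4th and the 98.8th percentile of the table. The SD between strains had a median of 0.234 log2 against 0.0566 for all genes. The broad-sense R2 (between-strain over total sum of squares) ranged from 0.429 for Junb to 0.712 for Fosb with a median of 0.593, against 0.434 for all genes and 0.356 that the number of strains and animals gives by construction. The spread within strains holds what differs between libraries as well as between animals.

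The order of strains was shared at its low end. HXB7/Ipcv was among the 4 lowest strains in all 10 genes, LH/MavRrrc and LEXF9/Stm in 9 each, and BXH2/Cub in 6. LEXF9/Stm is known here from 1 animal. In HXB7/Ipcv the 3 animals measured 7.80, 8.04 and 8.08 log2 for Fos, 8.30, 8.32 and 8.46 for Junb, and 10.6, 10.6 and 10.7 for Arc. For Npas4 they measured 7.68, 7.99 and 8.57, so that the animals of this strain were close together in most members but not in Npas4. Their libraries came from batches 1, 1 and 5. In LH/MavRrrc the 3 animals (batches 16, 17 and 17) measured 8.02, 8.20 and 8.39 log2 for Fos and 10.7, 10.7 and 10.8 for Arc.

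The high end was shared less. LEXF1A/Stm and FXLE15/Stm were among the 4 highest strains in 5 genes each, and BXH12/Cub, BXH13/Cub and LEXF1C/Stm in 4 each. BXH13/Cub led for Fosb (7.76, 7.82 and 7.88 log2), Egr2 (8.12, 8.17 and 8.22), Egr4 (7.52, 7.61 and 7.69) and Arc (11.8, 12.1 and 12.4), but its rank fell as low as 57 of 74 in another member. LEXF1A/Stm had the highest strain mean for Npas4 (2 animals at 9.34 and 9.43 log2), Nr4a1 (10.1 and 10.4) and Dusp1 (9.78 and 10.1). Single animals of other strains were higher in each of these genes. For Fos the highest strain was LE/Stm, with the single animal noted above at 9.61 log2. Strain means spanned 1.13 log2 for Egr1 to 1.98 log2 for Egr2, and 3.53 (Egr1) to 6.57 (Fosb) within-strain SDs. Each of the 73 steps between neighbouring strain means was smaller than the within-strain SD in all 10 genes, as 74 ordered means over such spans leave little room for a wider step, and neighbours were not tested against each other.

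**Figure D2:**
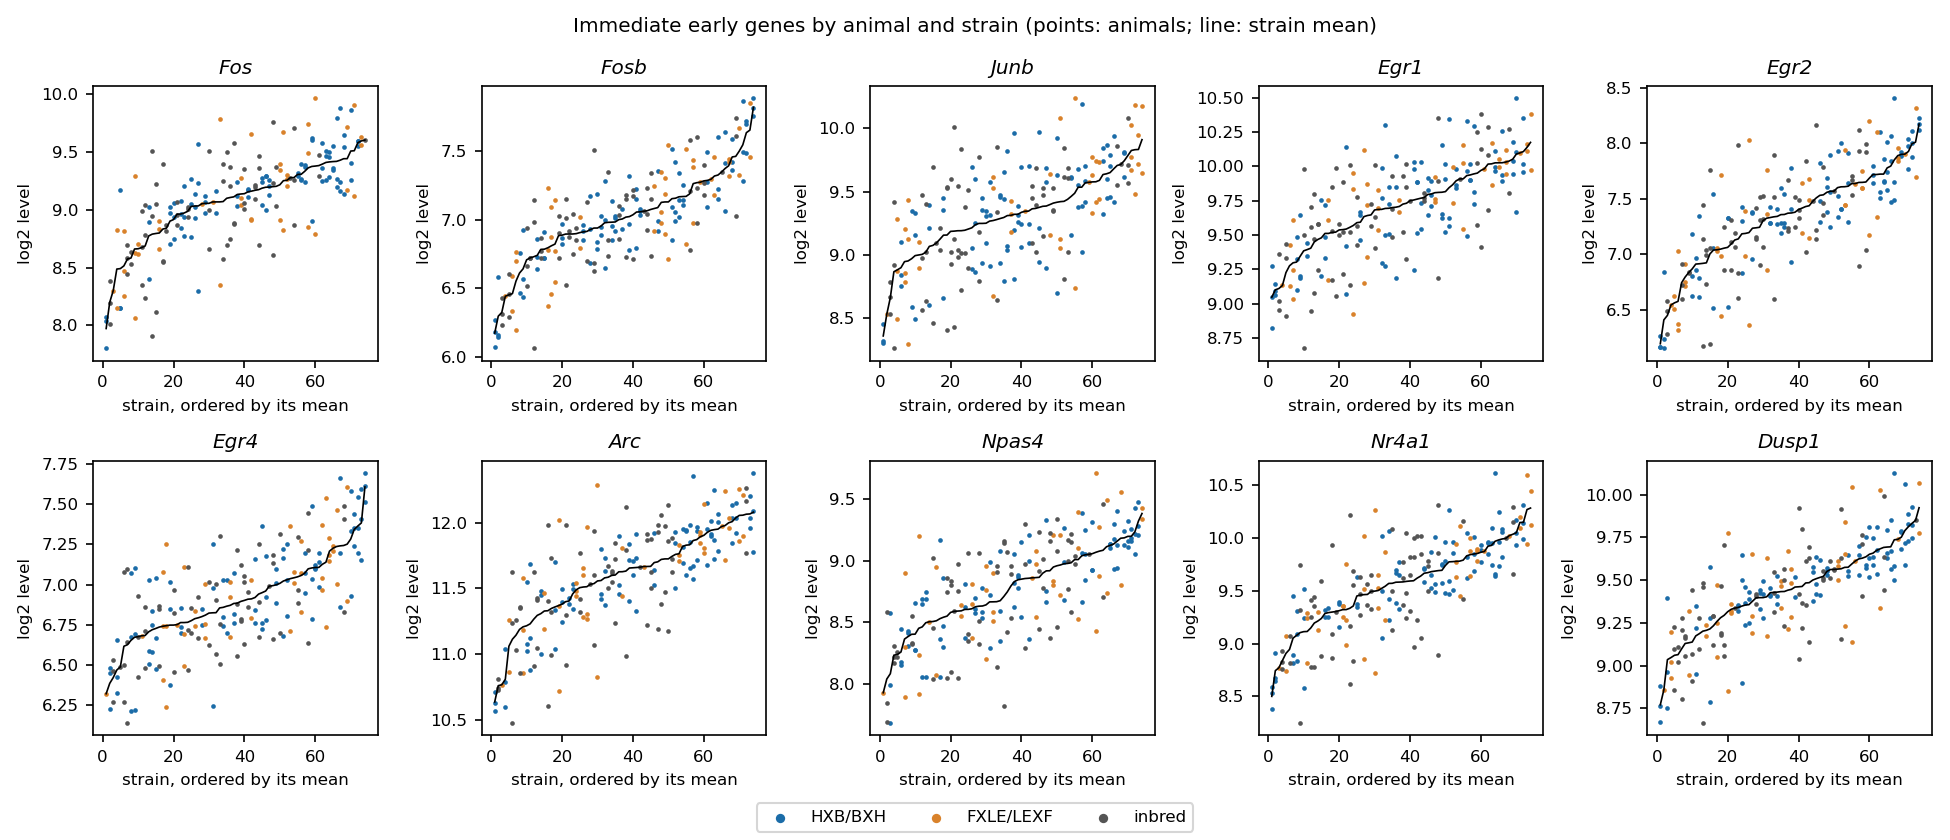
Deposited log2 level of each gene (vertical axis) in 197 animals (points, coloured by panel), with 74 strains ordered by their own mean (horizontal axis) and the strain mean as a line. Points scatter around the line by 0.223 to 0.407 log2 (within-strain SD), and HXB7/Ipcv lies at or near the left end for each gene.

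Single animals were high or low in many members together. All but 3 animals had 1 library, so that animal and library cannot be told apart in this. Repeated libraries of 1 animal also differed in several members at once, as described below. In 30 of the 197 animals all 10 genes were above their mean over animals, and in 32 all 10 were below it. HXB5/Ipcv animal 1 had the highest mean level over the genes (each standardized over animals), with Fos at 9.86, Junb at 10.2, Arc at 12.4 and Nr4a1 at 10.6 log2. The next 4 animals were LEXF1C/Stm animal 3, LEXF11/Stm animal 2, BXH5/Cub animal 3 and LEXF6B/Stm animal 1, each with 10 genes above the mean. They came from batches 2, 16, 20, 10 and 20, in that order. BN-Lx/Cub animal 1 (batch 3) had the lowest mean level and was the lowest animal of the table in 7 genes, with Fosb at 6.06, Egr1 at 8.68, Arc at 10.5 and Nr4a1 at 8.25 log2. The other 4 low animals were the 3 of HXB7/Ipcv and GK/FarMcwi animal 1 (batch 16), each with 0 of 10 genes above the mean. Markers of brain regions stood apart in BN-Lx/Cub animal 1 as well. Its mean level over 5 cerebellar markers was 11.1 log2, rank 6 from the top among 197 animals (9.39 to 11.3 in the others), while its mean over 6 striatal markers was 10.0 log2 at rank 196, over 5 cortical and hippocampal glutamatergic markers 12.3 log2 at rank 194, and over 5 pan-neuronal markers 14.1 log2 at rank 195. The low means did not hold for each marker of the latter lists: single glutamatergic markers ranked from 1 to 197 and single pan-neuronal markers from 2 to 197. Single cerebellar markers ranked from 1 to 99, and single striatal markers from 162 to 197. The olfactory bulb and endothelial means of this animal ranked 191 and 190. The part of these levels in its low values was not tested.

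Co-variation over animals was measured on deviations from the strain mean, so that strain differences could not enter it. All 45 pairs of the 10 genes were positively correlated over 192 animals, with a mean Pearson r of 0.659 (jackknife SE over strains 0.040) and a range of 0.404 to 0.913. All 45 passed a 5% false discovery rate in a two-sided permutation test within strains (highest adjusted p 3e-05 for Pearson r and 0.00015 for Spearman rho, with 1e-05 the smallest p that the permutations could give). The share of other gene pairs that would pass was not measured, so that the count does not set the members apart from other genes. The permutation also does not separate what animals share from what libraries share. Spearman rho ranged from 0.353 to 0.880. Without the 2 animals farthest from the median of the x gene, r ranged from 0.401 to 0.906. In a pair, the deviations had the same sign in 59.4% to 82.8% of animals.

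The closest pair was Arc and Nr4a1, with an r of 0.913 and a rho of 0.880. Next were Junb and Arc (r 0.837), Fos and Dusp1 (r 0.832), and Egr1 and Nr4a1 (r 0.803), which complete the 4 pairs over 0.8. The AP-1 genes were not each other's closest partners, with r of 0.603 for Fos and Fosb, 0.728 for Fos and Junb, and 0.581 for Fosb and Junb. Nor were the Egr genes, with r of 0.634 for Egr1 and Egr2, 0.617 for Egr1 and Egr4, and 0.590 for Egr2 and Egr4. The loosest pairs were Fos and Egr4 (r 0.404), Egr1 and Dusp1 (r 0.456), and Egr4 and Dusp1 (r 0.460). Against the mean of the other 9 genes, Arc (r 0.918) and Nr4a1 (r 0.906) were closest and Egr4 (r 0.660) was farthest. Means of the 69 strains, as a description, correlated at a mean r of 0.688 with a range of 0.430 to 0.927.

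**Figure D3:**
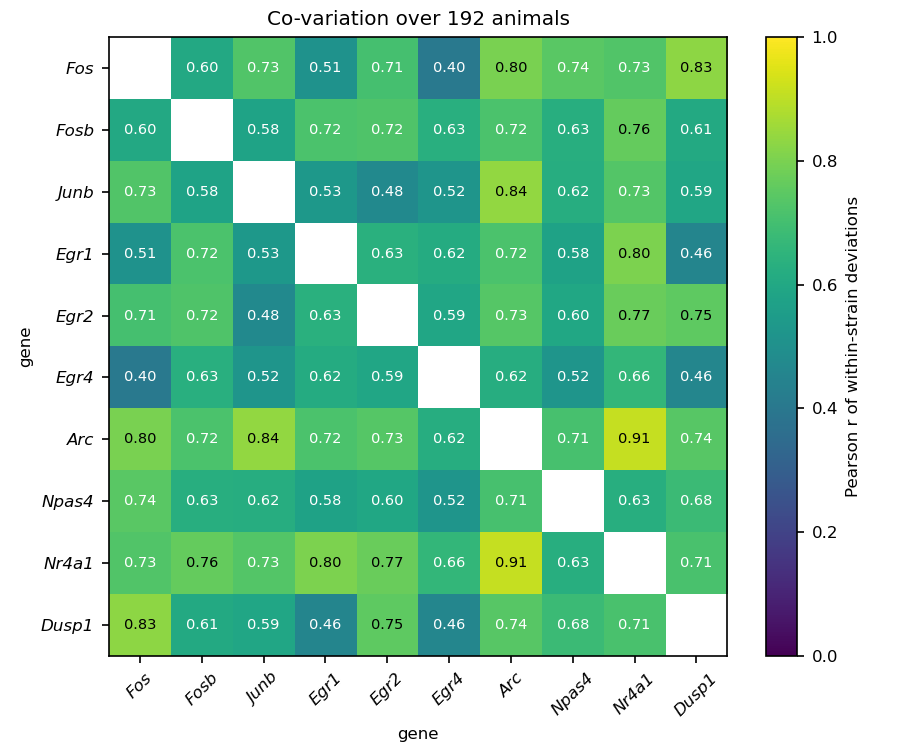
Pearson r of within-strain deviations for each pair of the 10 genes over 192 animals, by colour and printed value. Each cell is above 0, from 0.404 for Fos and Egr4 to 0.913 for Arc and Nr4a1.

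The genes shared some but not all of this with a wider pattern. The first principal component was taken from the standardized deviations of genes that are not members and lie above the median level of the table. It held 37.2% of their variance, and its r with the mean of the 10 genes was 0.495. Single members differed in this: r with the component was 0.615 for Junb, 0.585 for Egr1, 0.567 for Nr4a1 and 0.559 for Arc, but 0.236 for Fos, 0.20 for Dusp1 and 0.136 for Egr2. After its removal the mean r of the pairs was 0.614 (range 0.269 to 0.873). Within panels, the mean r was 0.467 in HXB/BXH (88 animals), 0.738 in FXLE/LEXF (40 animals) and 0.756 in the inbred strains (64 animals). The lowest pair in HXB/BXH was Junb and Egr2, with an r of 0.0582, against a lowest of 0.406 in FXLE/LEXF and 0.563 in the inbred strains. Within strain and batch, over 93 animals that had a strain mate in their batch, the mean r was 0.708.

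The difference in r between panels was not itself tested. The slopes of the other 9 genes on Fos, another measure, were compared in a limma model with a slope for each panel. In HXB/BXH, inbred and FXLE/LEXF animals the slopes were 0.432 ± 0.132, 0.883 ± 0.102 and 0.821 ± 0.118 for Egr2 (SE), and 0.499 ± 0.125, 0.914 ± 0.096 and 0.741 ± 0.112 for Nr4a1. For Egr1 they were 0.216 ± 0.140, 0.649 ± 0.108 and 0.431 ± 0.125. These 3 genes had unadjusted p of 0.0202, 0.0314 and 0.046, and 0 of the 9 passed the 5% false discovery rate (lowest adjusted p 0.452), as did 0.00479% of all genes. A difference in slope between panels was thus not shown at this number of animals. Unlike these 3 genes, Junb had its steepest slope in HXB/BXH (0.965 ± 0.146, against 0.854 ± 0.112 in inbred and 0.777 ± 0.130 in FXLE/LEXF animals).

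To see how the members stood among all genes, the level of Fos was entered beside strain in the limma model. All 9 other members were higher with Fos within strains, where 5.18% of 20858 genes were higher with it and 1.19% lower. The slope, in log2 of the gene per log2 of Fos, was 0.858 ± 0.072 for Junb, 0.777 ± 0.063 for Npas4, 0.754 ± 0.063 for Nr4a1, 0.749 ± 0.067 for Egr2 and 0.727 ± 0.049 for Arc (SE). The smallest slopes were those of Fosb (0.437 ± 0.052) and Egr4 (0.329 ± 0.067), the latter with the highest adjusted p of the 9 at 0.00154. With Npas4 in place of Fos all 9 others were again higher, where 14.2% of genes were higher with it and 10.1% lower. The slopes on Npas4 lay between 0.408 ± 0.059 for Egr4 and 0.711 ± 0.057 for Fos. Shares of all genes depended on scaling and batch: with each library centred on its median 0.225% of genes were higher with Fos, and with the batch of the sample title in the model 0.288% were, while all 9 members passed under both. Without LEW/Crl 8.00% of genes were higher with Fos.

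Of 37 other inducible early genes, all of which were in the table, 24 were higher with Fos, 25 were higher with Npas4 and 0 were lower with either. With centred libraries these counts were 17 and 20, and with the title batch 19 and 23. Over the list the median r with the mean of the 10 members was 0.488, against a median of -0.00511 for all other genes. The highest were Trib1 (r 0.773), a pseudokinase gene, Btg2 (r 0.770), an antiproliferative gene, Csrnp1 (r 0.718), which encodes a nuclear protein, and Ier2 (r 0.710), an early response gene. The slopes on Fos were 0.349 ± 0.039 for Trib1, 0.560 ± 0.039 for Btg2, 0.300 ± 0.046 for Csrnp1 and 0.520 ± 0.048 for Ier2 (SE). The class was not uniform: 4 genes had a negative r, namely Klf6 (-0.355), Rgs2 (-0.310), Tiparp (-0.248) and Homer1 (-0.100), and none of these 4 passed the test against Fos or Npas4. The list of 37 genes was chosen with earlier results of these data known, and these 4 were chosen after their values were seen.

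Among the 10422 other genes with a symbol and a level above the median of the table, the 12 most like the members were Btg2 (r 0.770), Jun (0.677), Per1 (0.672), Fosl2 (0.671), Arl4d (0.666), Chrm4 (0.659), Midn (0.618), Nab2 (0.617), Kcnf1 (0.603), Erf (0.596), Slc8a2 (0.596) and Lingo1 (0.594), each over 192 animals. Spearman rho of these 12 ran from 0.560 for Midn to 0.724 for Btg2. Of them, 5 (Btg2, Jun, Per1, Fosl2 and Arl4d) stood on the list of inducible early genes. Jun and Fosl2 encode AP-1 subunits, Nab2 encodes a corepressor of EGR factors, Per1 is a clock gene that cAMP signals also induce, and Chrm4 encodes a muscarinic acetylcholine receptor. The 4 least like were Tigd2 (r -0.538), Asb3 (-0.546), Asah1 (-0.556), which encodes acid ceramidase, and Ndufaf1 (-0.602), which encodes an assembly factor of mitochondrial complex I.

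Of 7 genes that respond to activity later, 1 was higher with Fos (5.18% of all genes), and 2 were higher and 1 lower with Npas4 (14.2% and 10.1% of all genes). The list was not tested against the early genes. Nptx2, which encodes a secreted synaptic pentraxin, had an r of 0.543 and a slope on Fos of 0.166 ± 0.050, and Vgf, a neuropeptide precursor gene, had an r of 0.488. The neurotrophin gene Bdnf had an r of -0.121 and passed neither test, and Nrn1 had an r of -0.157. The lowest were Pcsk1 (-0.321), Scg2 (-0.303) and Inhba (-0.245), and Scg2 was the one lower with Npas4 (adjusted p 0.016 by limma). Of 14 upstream regulators, 1 was higher with Fos and 6 with Npas4, and 0 were lower. All 14 regulators and 6 of the 7 later genes lie above the median level of the table. Among genes above that level 10.2% were higher with Fos, and 25.4% were higher and 20.3% lower with Npas4. The highest r were those of Mef2d (0.524), Crtc1 (0.522), a CREB coactivator gene, Mrtfa (0.522), a coactivator of serum response factor, and Srf (0.505), the gene of that factor. The list went both ways, with 9 of the 14 at a positive r and the lowest at -0.316 (Creb1), -0.222 (Camk4) and -0.153 (Elk4). Srf was the regulator called against Fos (slope 0.143 ± 0.042, adjusted p 0.0304 by limma). With centred libraries or the title batch in the model, 0 of either list were called against Fos. The genes with a negative r in both lists were named after their values were seen.

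**Figure D4:**
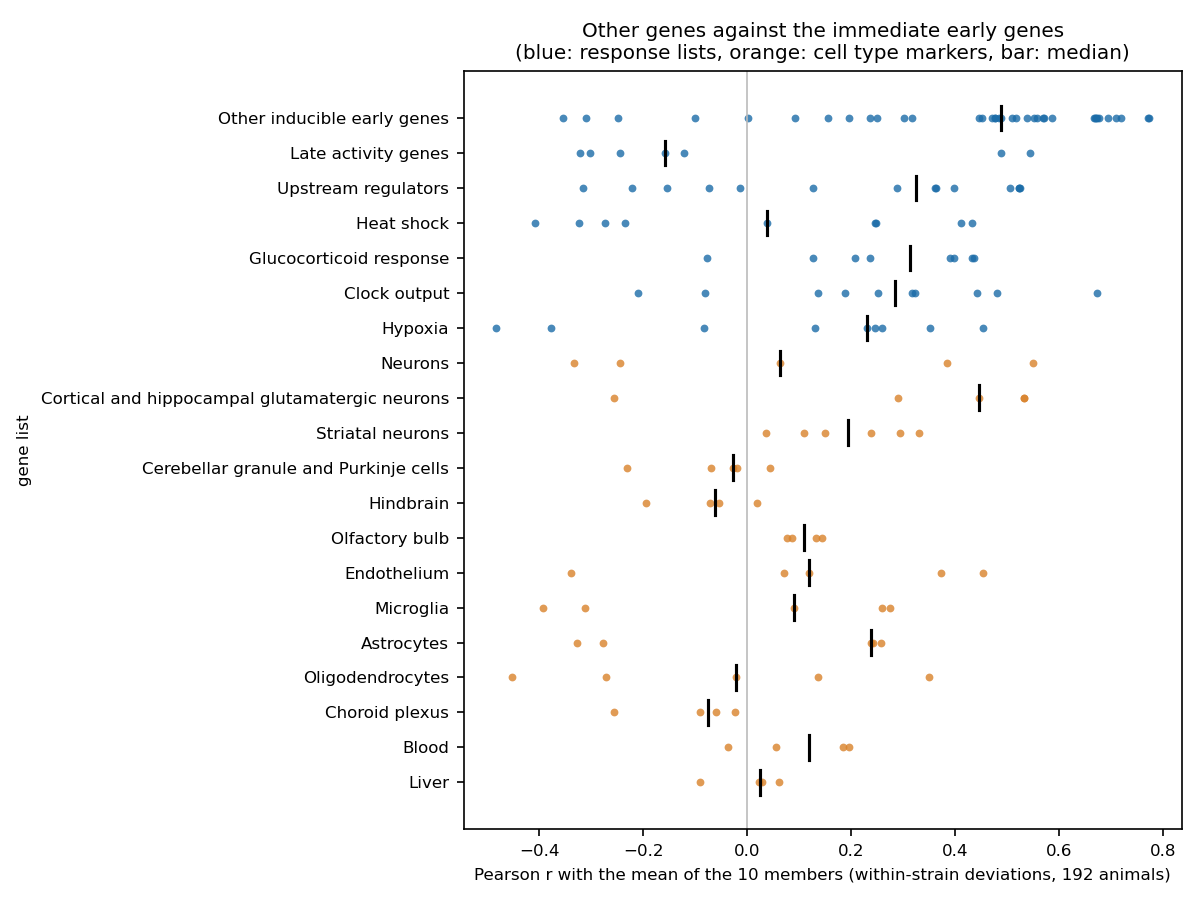
Pearson r between the within-strain deviation of each listed gene (point) and the mean of the 10 members over 192 animals (horizontal axis), by list (vertical axis), with the list median as a bar. The list of other inducible early genes has a median of 0.488 and reaches from -0.355 to 0.773, and of the cell type lists (orange) those of striatal neurons and olfactory bulb lie above 0, that of choroid plexus lies below 0, and the others spread to both sides of 0.

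Lists of stress and time-of-day genes were set beside the members because handling, collection hour and tissue condition are known to move such RNA. Of 9 measured heat shock genes, 1 was higher with Fos, and 2 were higher and 2 lower with Npas4. Hspa1b had an r of 0.432, Dnajb1 of 0.411, Hspb1 of 0.248 and Bag3 of 0.246, but the list went both ways, with Chordc1 at -0.408, Dnaja1 at -0.323, Hspa8 at -0.273, Hsp90aa1 at -0.234 and Hsph1 at 0.0387. Of 8 glucocorticoid response genes, 1 was higher with Fos and 3 with Npas4, led by Nfkbia (r 0.435) and Zbtb16 (r 0.432), with Cdkn1a at 0.398, Fkbp5 at 0.390 and Tsc22d3 at -0.0782. Of 10 clock output genes, 2 were higher with Fos and 4 with Npas4, led by Per1 (r 0.672), Nr1d1 (0.481), Per2 (0.442) and Dbp (0.323), with Cry1 at -0.0815 and Nr1d2 at -0.211. Of 9 hypoxia genes, 1 was higher with Fos, and 1 was higher and 1 lower with Npas4; Slc2a1 had an r of 0.452, Ddit4 of 0.352, Pfkfb3 of 0.260 and Adm of 0.246, while Bnip3 had one of -0.482, the largest in size on this list, Ankrd37 one of -0.377 and Egln3 one of -0.0834. List means had an r with the members of 0.0779 for heat shock, 0.287 for hypoxia, 0.510 for glucocorticoid response and 0.565 for clock output. The latter lists share Sgk1 and Per1 with the early gene list, and the hypoxia list shares Slc2a1 with the endothelial markers. Over all genes, 5.18% were higher with Fos, and 14.2% were higher and 10.1% lower with Npas4, and several of these small counts lie near those shares. Most genes of these lists lie above the median level of the table, where the shares were 10.2%, 25.4% and 20.3%. With centred libraries the r of the list mean was -0.00655 for heat shock, 0.137 for hypoxia, 0.406 for glucocorticoid response and 0.496 for clock output. With the same centring 1 clock gene and 0 heat shock, glucocorticoid or hypoxia genes were called against Fos. Against Npas4, 2 clock genes were then higher, 1 hypoxia gene was lower, and 0 heat shock or glucocorticoid genes were called. Over all genes, 0.225% were then higher with Fos, and 3.64% were higher and 3.9% lower with Npas4. The genes named with a negative r in these lists, and Hsph1, were named after their values were seen, as were Neurod6, Map2, Abcg2 and Pcp2 among the markers described next. Collection hour, handling and way of killing of each animal were not used here, and their part in the shared movement was not tested.

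Markers of the cell types that a brain sample holds were measured in the same way. All marker genes were in the table, the lowest with a mean of 2.99 log2 (Hoxb6, hindbrain), and neuronal markers such as Rbfox3 and Snap25 had means of 11.99 and 15.4 log2. The mean of the cortical and hippocampal glutamatergic list had an r of 0.514 with the members, with Slc17a7 at 0.533, Nrgn at 0.532, Camk2a at 0.445 and Neurod6 at -0.256. Of the 5 genes of this list, 0 were called against Fos and 3 were higher with Npas4 (2 with centred libraries). All 5, and most markers of the other lists, lie above the median level of the table. Among genes above that level 10.2% were higher with Fos, and 25.4% were higher and 20.3% lower with Npas4. List means had an r of 0.342 for pan-neuronal genes (Rbfox3 at 0.550, Map2 at -0.333), 0.338 for endothelium (Slc2a1 at 0.452, Cldn5 at 0.372, Pecam1 at 0.119, Flt1 at 0.0713, Abcg2 at -0.338) and 0.255 for striatal neurons (Ppp1r1b at 0.331). They were 0.155 for olfactory bulb, 0.111 for blood, 0.0496 for astrocytes, 0.0242 for liver, -0.0404 for oligodendrocytes, -0.045 for microglia, -0.0695 for cerebellum, -0.0797 for hindbrain and -0.115 for choroid plexus. Each of these list means had a lower r with centred libraries. It was then 0.463 for the glutamatergic list, 0.235 for pan-neuronal genes, 0.229 for endothelium, 0.205 for striatal neurons and 0.0522 for blood. The r of astrocytes was then -0.0486, of liver -0.00506, of oligodendrocytes -0.146 and of microglia -0.190. Of the pan-neuronal markers 2 were higher with Fos and 2 with Npas4 (0 and 1 with centred libraries), and of the endothelial markers 1 and 2 (0 and 0). The cerebellar marker Pcp2 was higher with Fos, 1 microglial and 1 striatal marker were higher with Npas4, and 1 marker each of astrocytes, oligodendrocytes and hindbrain was lower with Npas4, where the shares of all genes were 5.18% higher with Fos, and 14.2% higher and 10.1% lower with Npas4. With centred libraries the calls of Pcp2 and of the microglial, striatal and astrocyte markers were lost, and with the title batch in the model 0 of all these markers were called against Fos. The part of tissue make-up in the movement of the members was not tested.

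Sequencing batch was tested beside strain. In the limma F-test of batch 0 of the 10 members were called, as were 0.671% of all genes. At an unadjusted p under 0.05, 1 member (Fos, p 0.047, adjusted p 0.414) and 2459 genes (11.8%) passed. With batch in the model, the between-strain shares of Fos, Fosb and Junb were 0.448, 0.589 and 0.215, beside a median of 0.192 for all genes. Junb was then called for strain (adjusted p 0.0116 by limma), as were 57.3% of all genes.

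The panels were compared on strain means, since they differ in breeding. Panel and collection site are not the same split, because BN-Lx/Cub and SHR/OlaIpcv stood with the inbred strains. All 10 members were higher in HXB/BXH than in inbred strains, by a median of 0.119 log2, and higher in FXLE/LEXF than in inbred strains, by a median of 0.104 log2, but 0 were called in either comparison (limma, adjusted over all genes; 0% of all genes were called in each). Unadjusted p was under 0.05 for 0 members in each and for 499 genes (2.39%) and 2130 genes (10.2%). Fos had a mean of 9.15 ± 0.33 log2 in HXB/BXH (SD, n = 30 strains), 9.05 ± 0.38 in FXLE/LEXF (n = 19) and 8.99 ± 0.30 in inbred strains (n = 25). The difference of Fos between HXB/BXH and inbred strains was 0.155 log2 (95% interval -0.0211 to 0.332). Egr2 gave the largest, at 0.180 log2 (95% interval -0.0387 to 0.399), and Egr4 the lowest p, at 0.122 log2 (95% interval -0.0062 to 0.251, unadjusted p 0.0616). In all 10 genes the difference was smaller than the SD between strains of either panel.

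Between the 2 recombinant inbred panels 6 members were higher in HXB/BXH and 4 in FXLE/LEXF, by a median of 0.0212 log2, and 0 were called (0.00479% of all genes; unadjusted p under 0.05 for 0 members and for 1116 genes, 5.35%). These panels shared no batch, so that batch and panel cannot be told apart there. Within the 6 batches that held both HXB/BXH and inbred animals the mean difference was 0.494 log2 for Egr2, 0.399 for Fosb and 0.316 for Fos, but -0.0724 for Npas4, and these batches held from 1 to 11 inbred animals each. In 3 of the 6 the inbred side was SHR/OlaIpcv animal 1 alone, in its repeated libraries. Within the 5 batches that held both FXLE/LEXF and inbred animals it was 0.223 log2 for Fosb and 0.171 for Egr1, but -0.152 for Fos, -0.0724 for Egr2, -0.0233 for Npas4 and -0.0844 for Dusp1. In this comparison 1 of the 5 batches had SHR/OlaIpcv animal 4 alone on the inbred side. Without the SHR/OlaIpcv libraries, an alternative chosen after seeing the data, 3 batches remained for HXB/BXH, and the mean difference lay between 0.130 log2 (Npas4) and 0.603 log2 (Egr2), with all 10 members above 0. In 2 of these 3 the inbred side was BN-Lx/Cub alone (2 animals and 1 animal), and in the other it held 10 animals of 7 strains. The 2 animals included BN-Lx/Cub animal 1, which had the lowest mean member level of all animals. For FXLE/LEXF 4 batches remained, and 9 members lay above 0, with Npas4 at 0.261 log2 and Fos at 0.0311, while Egr2 was at -0.0287. The direction within batches of Npas4 in both comparisons, and of Fos and Dusp1 in the latter, thus changed with these repeated libraries, and no test was made on the values within batches.

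Repeated libraries showed how far the values of 1 brain moved between batches. SHR/OlaIpcv animal 1 had 12 libraries and animal 4 had 6, each library of an animal in another batch. The sources used here do not say at which step the repeats began. For animal 1 the lowest, median and highest library measured 8.53, 9.04 and 9.57 log2 for Fos. For Junb they measured 7.91, 8.99 and 9.89, for Arc 10.8, 11.5 and 12.1, and for Npas4 8.56, 9.05 and 9.33. The libraries of this animal thus spread nearly as far as different animals of a strain did: over the 10 genes the SD between its libraries was 0.697 (Npas4) to 1.47 (Junb) times the within-strain SD, with a median of 0.967, against 1.04 for all genes.

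The libraries of animal 4 lay closer together. Fos measured 9.09, 9.28, 9.44, 9.55, 9.45 and 9.45 log2 in batches 15 to 20. Egr2 measured 7.54, 7.61, 7.47, 7.55, 7.44 and 7.46, and Arc measured 11.3, 11.7, 11.7, 11.7, 11.9 and 11.7. The SD was 0.178 (Egr2) to 0.821 (Egr1) times the within-strain SD, with a median of 0.472 against 0.849 for all genes. Pooled over both animals the median was 0.845 (all genes 1.00), and Junb (1.26) and Arc (1.08) were over 1. Animal 1 carried this, with ratios of 1.47 for Junb and 1.24 for Arc, while animal 4 had 0.574 and 0.601 and was over 1 in 0 of the 10 genes. The smallest pooled ratios were those of Npas4 (0.611), Fosb (0.672) and Dusp1 (0.718). These ratios rest on 2 animals of 1 strain and were not tested.

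Libraries of 1 animal also differed in several members at once. Library 6 of animal 1, named by its batch, was lowest in Fos (8.53), Fosb (6.45), Egr1 (9.16), Egr2 (6.50), Nr4a1 (8.80) and Dusp1 (9.19), and library 16 was highest in Junb (9.89), Arc (12.1) and Nr4a1 (9.87). As a description, the mean r over pairs of members was 0.577 over the 12 libraries of animal 1 (range -0.128 to 0.933) and 0.370 over the 6 of animal 4 (range -0.447 to 0.943), so that some pairs did not move together. Library 11 of animal 1 broke the pattern, with the lowest Junb (7.91), Arc (10.8) and Npas4 (8.56) and the highest Egr4 (7.38).

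In the 3 batches that held both animals (15, 16 and 18), animal 4 was lower than animal 1 in the mean difference of all 10 genes, from -0.033 log2 for Egr2 to -0.397 log2 for Junb. For Arc the values of animal 4 were 11.31, 11.72 and 11.71 log2 and those of animal 1 were 11.54, 12.09 and 11.96. Averaged over all of its libraries, animal 4 was the higher in 8 of the 10 genes: Fos had a mean of 9.38 log2 in animal 4 and 9.03 in animal 1, and Egr2 had 7.51 and 7.25. The difference between these brains in those 8 genes thus changed sign with the batches over which they were averaged. Another animal, BN-Lx/Cub animal 3, had 2 libraries, which differed by 0.0432 log2 for Egr4 and by 0.970 log2 for Junb.

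**Figure D5:**
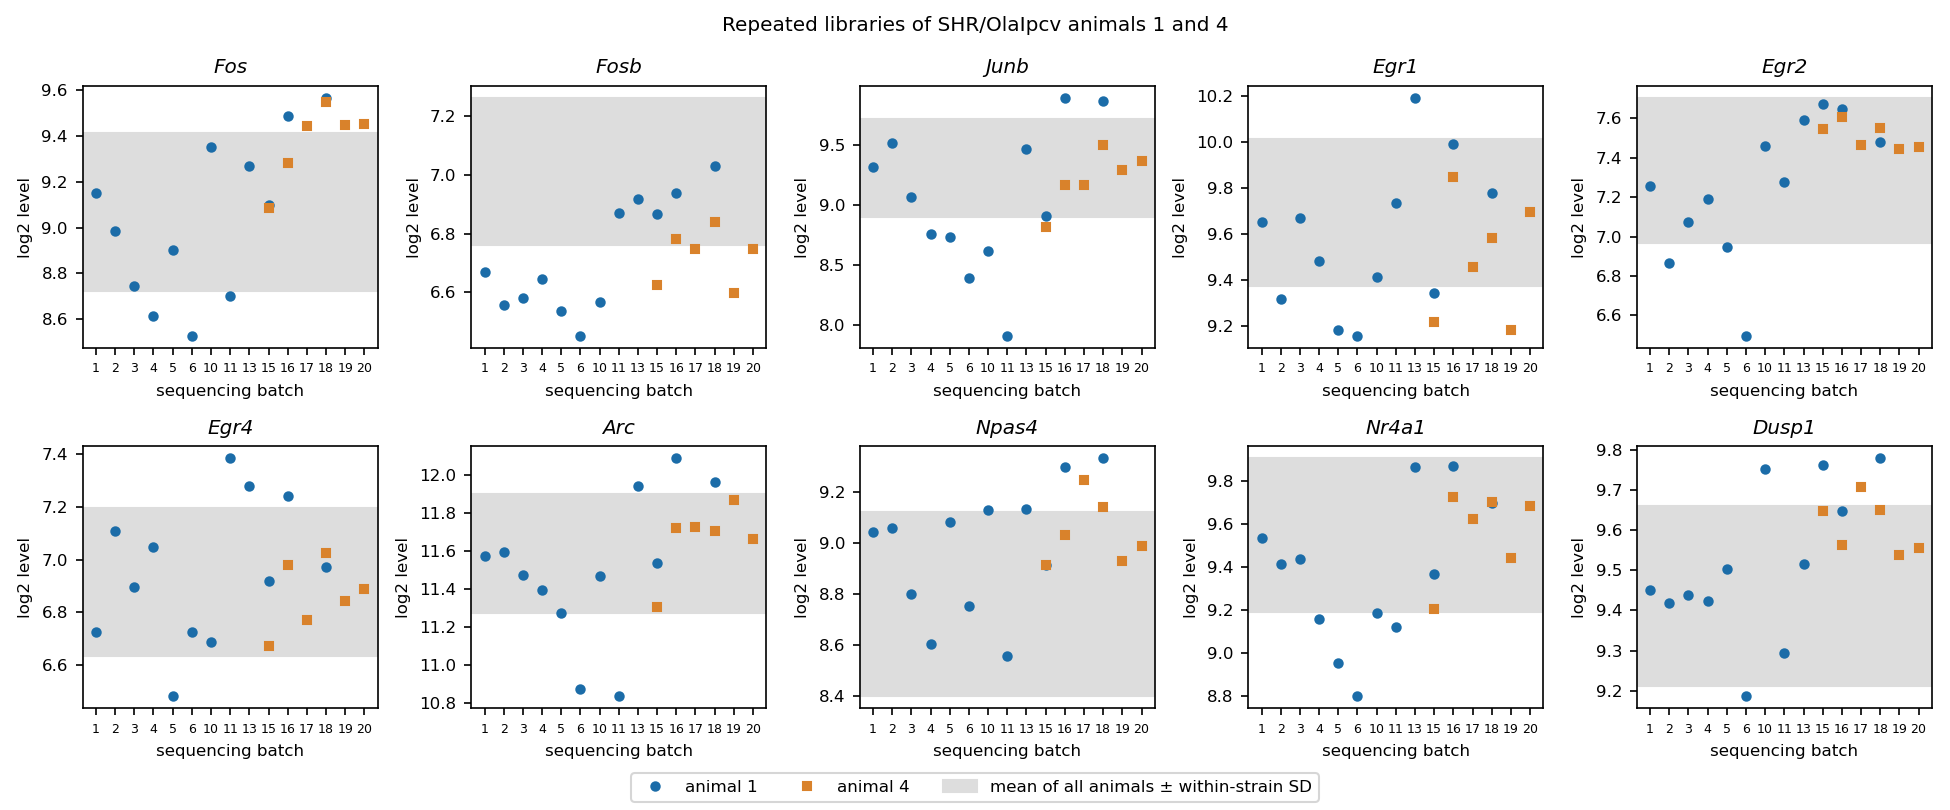
Deposited log2 level of each gene (vertical axis) in the libraries of SHR/OlaIpcv animal 1 (12 circles) and animal 4 (6 squares), by sequencing batch (horizontal axis); the grey band is the mean of all animals plus and minus the within-strain SD. Circles of Junb reach from 7.91 to 9.89 log2, beyond both edges of the band, and squares of Egr2 lie between 7.44 and 7.61.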

How the data were processed

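Whole brain total RNA depleted of ribosomal RNA was sequenced in 232 labelled samples, of which 214 libraries of the v7.1 RefSeq gene table were used. For an earlier version of the tables the authors trimmed reads with Cutadapt, removed ribosomal reads with Bowtie2, aligned to strain-specific rn6 genomes with HISAT2, assembled with StringTie, estimated counts with RSEM, removed 1 factor of unwanted variation and applied the rlog transformation of DESeq2. Per the submitters' processing notes, versions were Bowtie2 2.3.4.3, HISAT2 2.1.0 and RSEM 1.3.1 for 193 samples and Bowtie2 2.4.5, HISAT2 2.2.1 and RSEM 1.3.3 for 39. How the v7.1 table was made is not given in the sources used here. The deposited values were read as log2 from their range and median, and the table holds no counts, so that depth is unknown and the number of animals limits precision. A value of a member may carry what the removed factor left or took.

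Groups came from the strain label and animals from the replicate number of the title. Libraries of 1 animal were averaged, 73 spike-ins were left out, and 20859 genes were tested with limma 3.58.1 in R 4.3.3 (moderated F or moderated contrasts, Benjamini-Hochberg over all genes at 5%); the v5 and v6 Ensembl tables were alternatives, with 1 v5 column not used. Variance components came from a 1-way layout with a jackknife over strains. Pairs were tested by 100000 permutations within strains (numpy 2.4.6). No filter on low values was applied. The code was tested on simulated data. Members and gene lists were chosen with earlier results of these data known. Named genes were the 10 members, the 12 most and 4 least like their mean within-strain deviation among genes above the median level, up to 4 genes of each list by r, and the 5 highest and 5 lowest animals. Replicate numbers of different strains are not shared animals, and did not pair them (mean r of deviations 0.0218 for equal and -0.0104 for other numbers). In 23 libraries the title names another batch than the batch label, and the label was used.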

Additional observations from a re-analysis of the deposited data

Results flagged for a closer look

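In the libraries of SHR/OlaIpcv animal 4, the batch 15 library had an Arc level of 11.3087 log2 (11.3), and the next lowest of the 6 libraries had 11.7. Its distance to that library was 0.629 of the whole range, over the limit of 0.625 by which a lowest or highest value among 6 stands apart. Of the 10 groups of libraries examined (1 for each member), 1 passed this limit, and about 1 in 20 does so when nothing sets a library apart.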

How the results depend on the processing

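The number of members with a strain effect was 10 with the batch label or the title batch as a covariate, where 57.3% and 46.2% of all genes were called, and 8 of 8 in the v6 table (31.7% of all genes), which was used without Junb and Dusp1. Over all 69 strains left out in turn it was 9, with Junb never called (adjusted p 0.0688 to 0.325 by limma). The share of all genes called was not recorded for these fits. Leaving out replicate 1, 2 or 3 gave 7 to 9 members (without 1, Egr1 and Egr4 were lost; without 2, Fos and Npas4; without 3, Egr1 was lost and Junb gained), a median between-strain share of 0.327 to 0.422, a mean correlation of 0.619 to 0.675, and 7 to 8 members higher with Fos (Egr4 was lost each time, and Egr1 without 1); these fits hold fewer animals. In the v5 table of 131 animals the median share was 0.592 and the mean correlation 0.595, and Junb was called; the cause was not tested. The mean correlation was 0.467 in HXB/BXH, 0.738 in FXLE/LEXF, 0.756 in inbred strains, 0.708 within strain and batch, and 0.614 after removal of the first component, an alternative chosen after seeing the data, as were the fits without SHR/OlaIpcv (0.659), without BN-Lx/Cub animal 1 (0.642) and without each strain. With the replicate block 9 members were called, the median share was 0.379 and the mean correlation 0.666; the numbers did not pair animals, and 57 of 192 animals were closest to their own number. The ratio of repeat to animal SD was 0.472 for animal 4 alone. Genes called for strain were 15.7% and 14.9% without replicate 1 or 2, and 62.8% in v5. This share is not given here for the fits without replicate 3 or with the replicate block, so that their member counts stand without it. Genes higher with Fos numbered 1081, against 60 with the title batch, 1669 without LEW/Crl, 25, 29 and 25 without replicate 1, 2 or 3, and 47 with centred libraries, where 61.8% of calls were higher in place of 81.3%. For Npas4 they numbered 2956, against 1528, 2941, 28, 19, 893 and 759, where 48.3% of calls were higher in place of 58.3%. Among genes above the median level 10.2% were higher with Fos and 25.4% with Npas4. Genes called for batch were 1.19% with 1 library per animal and 0.12% without replicate 2. The alternative that leaves out animals standing apart used LE/Stm and LEW/Crl. Depth is unknown, so that no limit from counting can be given.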
